A study of Mus musculus with 2 samples.

Results

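Nonsense-mediated decay (NMD) transcripts are spliced RNAs that the gene annotation lists with a stop codon placed early enough to mark the RNA for destruction. They were followed here in the left cerebral cortex of 2-month-old B6CASTF1/J males, hybrids born to C57BL/6J and CAST/EiJ parents, by sequencing of total RNA from 2 animals. Each animal gave 1 library from 300 ng of RNA after reduction of ribosomal RNA, with ERCC synthetic RNAs added, and the labels list no treatment. The labels number separate males and place both libraries in 1 group, replicates 1 and 2, under a shared donor record. The design therefore holds no comparison between conditions, no test was run, and every difference between the animals is 1 animal against 1.

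The transcripts were chosen by their annotated class and their level: annotated as NMD, and with a mean TPM (a length-corrected abundance scaled to a fixed total per library) of at least 2 over both libraries. This level was read in the deposited quantification made directly from the sequencing reads, called the quantification from reads below. Of 7186 annotated NMD transcripts, 2071 (28.8%) met this rule, among 141767 transcripts of named genes in all. A further 3138 were above 0 and under 2 TPM, and 1977 were at 0 in both libraries. The chosen transcripts came from 1697 genes, of the 4576 genes with an annotated NMD transcript. They made up 5.35% of the 38719 transcripts of any class at 2 TPM or more. Since level was part of the rule, the levels are a description. A second deposited quantification, made from an alignment of the same libraries to the transcriptome and called the quantification from alignment, served as the check.

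NMD is a surveillance pathway of the cytoplasm that acts during translation. Splicing leaves a protein complex, the exon junction complex, just upstream of each exon junction, and ribosomes remove these complexes as they pass. When a ribosome stops well upstream of the last junction, a complex remains on the RNA, the helicase Upf1 and the kinase Smg1 act on it, and the RNA is degraded. Many splicing factors hold their own level through the pathway by splicing a so-called poison exon, which carries a stop codon in frame, into their own RNA. Steady-state RNA, as measured here, holds what remains after decay.

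The annotated coding ends of some of these transcripts show where the annotated stop lies. Each sequence below is the last 60 bases of the annotated coding part, stop codon included, 5′ to 3′ in the sense of the transcript, from GENCODE M21 on build mm10. The span includes introns where the sequence crosses a junction. The first set was chosen because these are splicing factors whose early stop lies outside every exon of the gene's protein-coding transcripts, and capitals mark the bases outside those exons. The span of Srsf3-201 is chr17:29038599-29039487, plus strand. That of Srsf7-203 is chr17:80205054-80205293, minus strand. Srsf9-205 ends within chr5:115328369-115328428 and Srsf4-204 within chr4:131884331-131884390, both on the plus strand. On the minus strand, Tra2a-202 ends within chr6:49252965-49253024, Tra2b-206 within chr16:22259181-22259240, Hnrnpll-203 within chr17:80044976-80048620 and Snrpb-203 within chr2:130176695-130177016.
Srsf3-201: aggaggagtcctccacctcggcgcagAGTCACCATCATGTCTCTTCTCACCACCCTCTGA
Srsf7-203: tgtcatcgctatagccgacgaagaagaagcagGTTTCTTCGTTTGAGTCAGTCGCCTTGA
Srsf9-205: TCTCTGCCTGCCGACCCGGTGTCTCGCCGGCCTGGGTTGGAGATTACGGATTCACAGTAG
Srsf4-204: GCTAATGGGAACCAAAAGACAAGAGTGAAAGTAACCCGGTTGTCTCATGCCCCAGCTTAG
Tra2a-202: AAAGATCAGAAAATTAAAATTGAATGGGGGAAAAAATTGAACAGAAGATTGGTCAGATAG
Tra2b-206: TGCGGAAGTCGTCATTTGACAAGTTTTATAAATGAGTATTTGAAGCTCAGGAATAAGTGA
Hnrnpll-203: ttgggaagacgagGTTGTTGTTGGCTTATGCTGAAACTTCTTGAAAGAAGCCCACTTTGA
Snrpb-203: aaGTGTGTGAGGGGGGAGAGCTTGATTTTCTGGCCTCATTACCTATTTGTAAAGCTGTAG

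In Srsf3-201 and Srsf7-203 the reading frame left known coding sequence in the middle of the printed stretch, with 34 and 28 of the 60 bases outside the exons of coding transcripts. In Srsf9-205, Srsf4-204, Tra2a-202 and Tra2b-206 all 60 bases lay outside them. For Srsf9-205 and Srsf4-204 the annotation found no coding start, so the reading frame that leads to their stop is incomplete. The second set was chosen because it shows the other route, a stop built wholly from the exons of coding transcripts. Here capitals mark the stop codon, and no printed base lies outside those exons. The spans are chr2:32962086-32962596 for Rpl12-201 and chr3:138898123-138898288 for Tspan5-207 on the plus strand, and chr1:161244207-161244266 for Prdx6-208 and chr13:114317014-114388002 for Ndufs4-202 on the minus strand.
Rpl12-201: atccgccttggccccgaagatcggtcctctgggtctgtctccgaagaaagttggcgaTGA
Tspan5-207: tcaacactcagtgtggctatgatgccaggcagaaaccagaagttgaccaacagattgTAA
Prdx6-208: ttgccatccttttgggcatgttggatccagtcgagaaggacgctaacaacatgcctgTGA
Ndufs4-202: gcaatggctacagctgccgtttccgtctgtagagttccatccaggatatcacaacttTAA

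The last set was chosen because a short run of extra bases, or a different exon, separates an abundant NMD transcript from coding ones. Capitals again mark the bases outside the exons of coding transcripts. Ppia-201, the most abundant of all, lies on the plus strand with this stretch within chr11:6415974-6418243. Clu-205 ends within chr14:65971819-65973346 on the plus strand, and Ndufs4-204 within chr13:114387442-114388002 on the minus strand. Ndufs4-204 and Ndufs4-202 open with the same bases and then part, the first into bases outside the coding transcripts and the second into one of their exons.
Ppia-201: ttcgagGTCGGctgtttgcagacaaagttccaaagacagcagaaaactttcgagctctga
Clu-205: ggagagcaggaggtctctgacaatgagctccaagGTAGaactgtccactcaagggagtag
Ndufs4-204: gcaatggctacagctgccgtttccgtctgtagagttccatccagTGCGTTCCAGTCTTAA

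The stop codon lay at least 50 bases before the last exon junction in 2061 of the 2069 transcripts with a junction and an annotated stop. The annotation uses this distance to assign the class, so the count restates the label. The median distance was 359 bases, with quartiles of 189 and 742, and the median number of junctions after the stop was 3. In 417 transcripts only 1 junction followed the stop. Among protein-coding transcripts at 2 TPM or more, 89 of 19472 had a stop this far upstream, and the median stop lay 141 bases after the last junction.

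**Figure D1:**
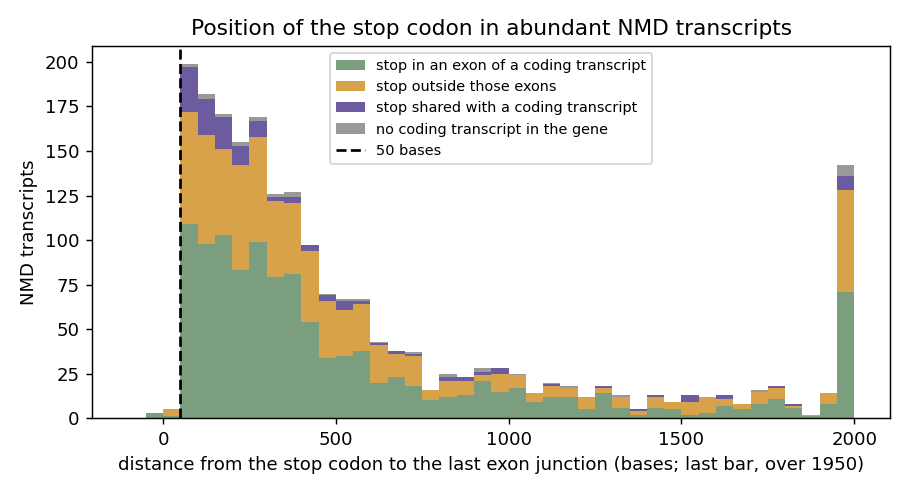
Number of abundant NMD transcripts (vertical axis) by the distance in bases from the stop codon to the last exon junction (horizontal axis, bars of 50 bases, last bar holding all longer distances), split by where the stop lies. Nearly all lie to the right of the dashed line at 50 bases, 8 of 2069 lie to its left, and the bars are highest between 50 and 300 bases.

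Where the stop lay was compared with all protein-coding transcripts of the same gene. In 1159 transcripts (56.0%) the stop fell inside an exon of a coding transcript, and in 1122 of these it fell within coding sequence rather than an untranslated part. Of the 1159, 678 contained no base outside the exons of coding transcripts. In 740 (35.7%) the stop lay outside those exons, as in the first set of sequences, and the median of these carried 142.5 bases outside them. Another 134 (6.47%) ended at the same stop codon as a coding transcript and had a later junction, 36 belonged to genes with no coding transcript and were all tagged as readthrough, and 2 had no annotated stop.

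The NMD transcripts were shorter than coding ones: the median length was 1314 bases with 7 exons, against 2485 bases with 8 exons for the 23216 protein-coding transcripts at 2 TPM or more. The annotated coding part had a median of 276 bases against 1176. The coding start was not found in the annotation for 594 (28.7%), and those had a median length of 742 bases against 1782 for the rest. TGA was the stop codon in 55.9%, TAA in 22.6% and TAG in 21.5%, against 50.4%, 26.4% and 23.2% of coding transcripts. The annotation grades the support for a transcript from 1, the strongest, to 5, the weakest. Of the NMD transcripts, 631 were at 1, 167 at 2, 380 at 3 and 649 at 5, and 244 had no grade. Ppia-201, Ndrg4-210 and Clu-205 were at 5 and Rpl27a-205 at 2, while Atp2a2-203, Prdx6-208 and Tspan5-207 were at 1.

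The median level was 5.10 TPM, and 575 transcripts reached 10, 84 reached 50 and 23 reached 100. Together they held 2.46% of all TPM in replicate 1 and 2.54% in replicate 2. In the quantification from alignment the same transcripts held 1.05% and 1.03%. The median transcript rested on 101.5 estimated counts, and 1394 had a mean of at least 50. Libraries held 33424292 and 33464140 estimated counts in the quantification from reads and 33007629 and 32142918 in the other. Markers of the cells of cortex were present in both libraries, with the excitatory neuron gene Slc17a7 at 854 and 876 TPM, the inhibitory gene Gad1 at 194 and 180 and the astrocyte gene Slc1a2 at 1015 and 1091. The cerebellar granule cell genes Gabra6 and Cbln3 stayed under 0.4 TPM.

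Ppia-201 was the most abundant, an NMD form of the gene for the prolyl isomerase cyclophilin A, at 715 TPM in replicate 1 and 718 in replicate 2. The quantification from alignment gave it 659 and 629 TPM. Ppia-201 held 44.1% of the TPM of its gene in the first and 80.6% in the second, ahead of the protein-coding Ppia-202 at 27.5% and 1.09%. A retained-intron form held the second highest share in each, Ppia-204 at 27.9% from reads and Ppia-203 at 17.7% from alignment. Ppia-201 is high in both animals and in both quantifications, while its share and those of the other forms depended on the quantification.

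The next 3 were high only in the quantification from reads. Ndrg4-210, from a gene of the N-myc downstream-regulated family, was at 544 and 478 TPM there and at 19.4 and 21.04 from alignment. Rpl27a-205, from a ribosomal protein gene, was at 364 and 320 TPM against 5.99 and 4.31. Clu-205, from the gene for the secreted chaperone clusterin, was at 282 and 303 TPM against 3.08 and 4.24. In each of these, both animals lay close together within a quantification and far apart between quantifications. Clu-205 carries 4 bases outside coding exons in the printed stretch and has 28 words of 31 bases that occur in no other annotated transcript. Ndrg4-210 has 54 such words and Rpl27a-205 has 78, while Ppia-201, high in both quantifications, has 29. Whether the number of such words bears on the differences was not tested.

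Atp2a2-203, from the gene for the calcium pump of the endoplasmic reticulum, was high in both: 223 and 212 TPM from reads, 206 and 196 from alignment. It shares its stop codon with a coding transcript, with a coding part of 3132 bases, and the annotated class comes from a junction 1258 bases beyond that stop. Its share of the gene was 45.9% and 62.1%. Prdx6-208, from a peroxiredoxin gene, stood at 135 and 138 TPM from reads and 87.1 and 85.3 from alignment. Tspan5-207, from a tetraspanin gene, was similar, with 121 and 123 against 88.7 and 87.7. These TPM are not on 1 scale, since the median transcript of any class was 1.65-fold lower from alignment. With that shift taken out, alignment over reads was 1.52 for Atp2a2-203, 1.04 for Prdx6-208 and 1.19 for Tspan5-207.

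Others of the 20 most abundant were absent from the second quantification. Skp1a-204, from the gene for a subunit of SCF ubiquitin ligases, was at 201 and 171 TPM from reads and at 0 in both libraries from alignment. Cx3cl1-203, from the gene for the neuronal chemokine fractalkine, was at 146 and 168 TPM against 0 and 0. Of the transcripts at 0 from alignment, the next highest were Dgkz-211 at 101.7 and 113 TPM, Eef1b2-206 at 70.3 and 114, and Actr1a-202 at 93.6 and 79.7. These 5 were picked as the highest from reads among those at 0 from alignment, so the gap between the quantifications is set by the choice. From reads all 5 were at 70.3 TPM or more in both animals. The choice used the mean over both animals, so this likeness is in part set by it too.

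**Figure D2:**
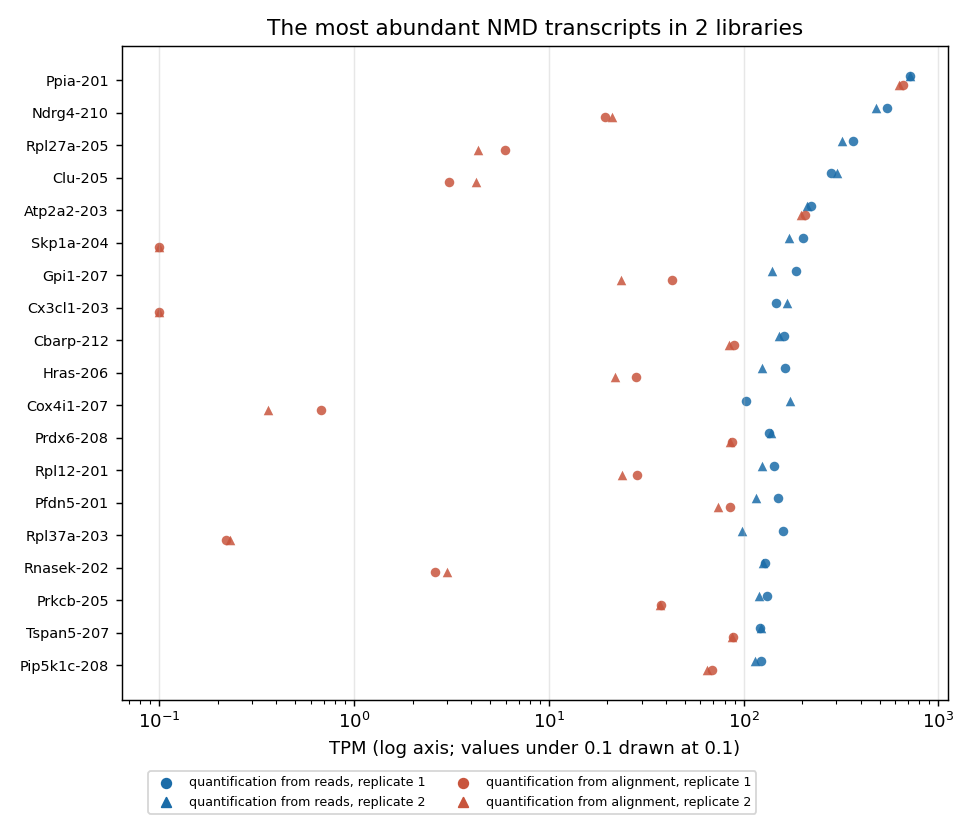
TPM (horizontal log axis) of 19 of the 20 NMD transcripts with the highest mean, in replicate 1 (circles) and replicate 2 (triangles), from reads (blue) and from alignment (red); values under 0.1 sit at 0.1. Ppia-201 and Atp2a2-203 have all 4 points close together, while Skp1a-204 and Cx3cl1-203 have their red points at the left edge.

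Each transcript was set against the summed TPM of its gene. With shares averaged over the animals, the median share was 13.2%, with quartiles of 6.85% and 24.8%. The medians within the animals were 13.5% and 13.6% (SD 0.0753, n = 2). In the quantification from alignment the median share of the same transcripts was 6.98%, with quartiles of 1.88% and 18.1%. There the medians within the animals were 6.80% and 6.92% (SD 0.0783, n = 2). Here and below, the SD is that of the animals' own medians and need not be centred on the median of averaged shares. From reads, 315 were the most abundant transcript of their gene and 123 held at least 50% of it. From alignment these numbers were 230 and 105, and 162 led and 70 held 50% in both. The median shares lay close together between the animals and further apart between the quantifications. The rule chose transcripts on their mean level from reads over both animals, so part of this contrast is set by the choice.

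**Figure D3:**
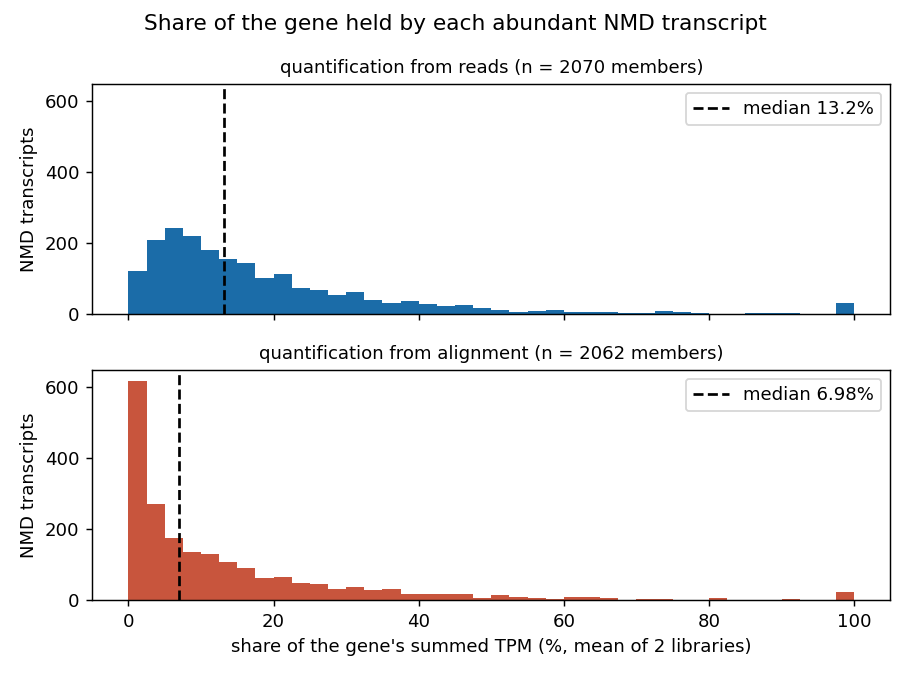
Number of abundant NMD transcripts (vertical axis) by their share of the summed TPM of the gene (horizontal axis, %), from reads (top) and from alignment (bottom), with dashed lines at the medians of 13.2% and 6.98%. The bottom panel has its highest bar next to 0, and both panels have a small bar at 100%.

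Some genes were annotated in a way that left only an NMD form. In 27 cases the NMD transcript was the only transcript of its gene, and its share is 100% by construction. Of the 10 highest shares among genes with at least 10 TPM, 8 were readthrough transcripts, which join neighbouring genes, in genes without a coding transcript, such as Gm49356-201 at 60.2 and 61.1 TPM. The other two were Rnasek-202 and Tbca-203. Rnasek-202, from the gene for ribonuclease kappa, was at 129 and 125 TPM from reads with the coding Rnasek-201 at 0. From alignment Rnasek-202 was at 2.60 and 3.00 and Rnasek-201 at 109 and 110. Tbca-203, from a gene for a tubulin folding cofactor, was at 85.8 and 79.4 TPM against 0 and 0, and the coding Tbca-201 was at 0 in replicate 1 against 35.7 from alignment. For both genes the quantifications placed the reads on opposite transcripts, in both animals alike.

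In genes with other transcripts, 50 NMD transcripts held at least 50% of the gene in both quantifications, and 41 of these were at 2 TPM or more in both. Rpl12-201, from a ribosomal protein gene, was at 143 and 124 TPM from reads and 28.2 and 23.9 from alignment, with shares of 76.8% and 52.7%. Mnat1-203, from the gene for an assembly factor of the CDK-activating kinase, was lower in level, at 16.6 and 14.98 TPM, and held 90.7% and 90.9% of its gene. Syt16-201, from a synaptotagmin gene, was at 46.8 and 46.5 TPM with shares of 76.2% and 83.1%. These 3 held most of their gene's TPM in each table, except that Rpl12-201 was at 49.0% in replicate 2 from alignment.

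Several genes known for neurons and glia were among the 41. Lgi1-201, from the gene for a secreted neuronal protein linked to epilepsy, was at 59.8 and 58.9 TPM and held 58.4% and 62.5% of the gene. Kcna6-201, from a voltage-gated potassium channel gene, was at 23.5 and 27.7 TPM with shares of 66.5% and 82.4%, and it has the same stop as a coding transcript. Mobp-204, from a myelin gene of oligodendrocytes, was at 89.1 and 72.9 TPM with shares of 53.3% and 59.9%. It too ends at a stop shared with a coding transcript, and 70.5% of its words of 31 bases are its own. Lgi1-201 has 0 words of its own among 4452, and Kcna6-201 has 2 among 5797. Mobp as a gene was at 163 and 140 TPM, higher in replicate 1, as was the myelin gene Mbp (507 and 423), and in bulk tissue fewer cells of a type and less RNA per cell cannot be told apart.

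The check over all transcripts put these values in order. Over all classes, 63.0% of transcripts at 2 TPM or more from reads were also at 2 TPM or more from alignment, and 5.97% were at 0 in both libraries. For the NMD transcripts the numbers were 940 of 2071 (45.4%) and 239 (11.5%). Protein-coding transcripts reached 2 TPM in 73.4% and were at 0 in 5.67%, retained-intron transcripts in 52.2% and 1.89%, and processed transcripts without a coding part in 42.9% and 10.6%. NMD transcripts were thus nearer to processed transcripts than to coding ones.

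The scales of the quantifications differed, since the median transcript was 1.65-fold lower from alignment. After this shift was taken out, 900 NMD transcripts (43.5%) were at least 2-fold lower from alignment, against 26.1% of all transcripts, and 88 (4.25%) were at least 2-fold higher, against 5.02%. The remaining 1083 (52.3%) lay within 2-fold. Protein-coding transcripts were lower in 22.5% and processed transcripts in 45.5%. Examples on the high side were Eif4a2-210, from a translation initiation factor gene, at 41.7 and 105 TPM from reads and 185 and 172 from alignment, and Rpsa-206, from a ribosomal protein gene, at 88.5 and 92.9 against 147 and 142.

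**Figure D4:**
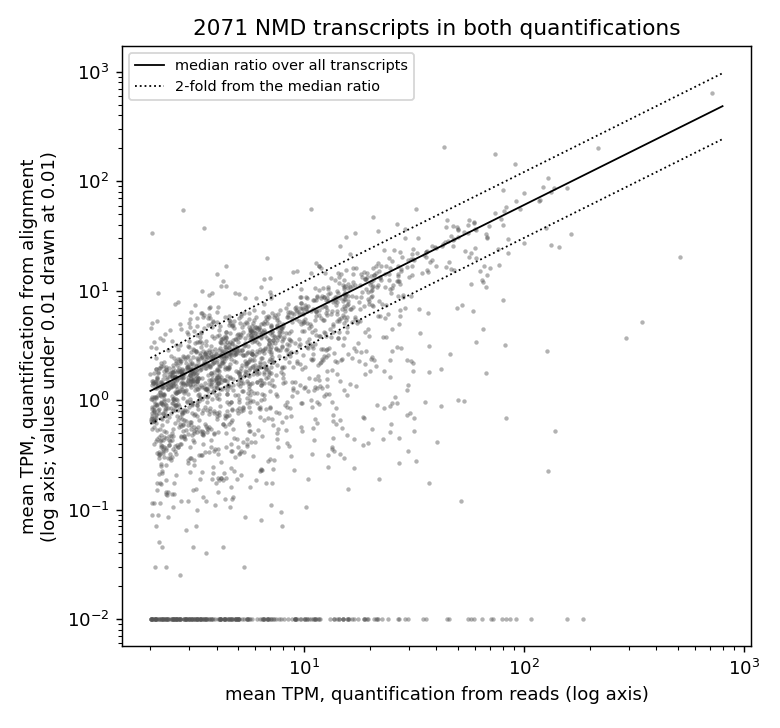
Mean TPM over both libraries of each of the 2071 NMD transcripts, from reads (horizontal log axis) and from alignment (vertical log axis, values under 0.01 drawn at 0.01). The solid line is the median ratio over all transcripts and the dotted lines are 2-fold from it; 900 transcripts lie below the lower dotted line, 88 above the upper one, and 239 are at 0.

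Sequence that tells a transcript from its neighbours was scarce. The median NMD transcript had 4.07% of its 31-base words in no other annotated transcript, against 6.31% for coding transcripts and 33.9% for retained-intron ones. NMD transcripts with no such word numbered 260 (12.6%), near the 11.7% of all transcripts at 2 TPM or more and below the 14.1% of coding ones. The uncertainty deposited with the alignment counts, a posterior SD, had a median of 32.4% of the count for NMD transcripts and 11.1% for coding ones. Among NMD transcripts the outcome of the check did not follow uniqueness step by step: 50.4% lay within 2-fold where no word was unique, 41.3% where 5 to 10% were, and 66.7% of the 66 transcripts with more than 50%. None of these 66 was at 0 from alignment, which is a count in 1 small class. Members with no coding start in the annotation were at 0 in 17.3% of cases and the others in 9.21%. The part of sequence overlap in the differences was not tested.

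Between the animals, 404 NMD transcripts (19.5%) differed at least 2-fold in TPM from reads, against 13.8% of all transcripts at 2 TPM or more. Of these, 235 were higher in replicate 2 (background 8.35%) and 169 lower (background 5.40%). With a mean of at least 50 estimated counts, 149 (10.7%) differed, against 7.45% of all transcripts with as many. Of the NMD transcripts, 43 (2.08%) were at 0 in replicate 1 alone, against 1.22% of all transcripts at 2 TPM or more, and 21 (1.01%) in replicate 2 alone, against 0.630%. With 1 animal on each side, no spread within a group exists to set these numbers against.

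Few of these differences appeared in the second quantification. Of the 404, 110 were at 2 TPM or more from alignment, 30 differed at least 2-fold there in the same direction and 3 in the opposite one. The same was not counted over all transcripts, so these counts cannot be read as particular to NMD transcripts. Among the 940 transcripts measured at 2 TPM or more from alignment, 81 (8.62%) differed at least 2-fold there, against 5.32% of all transcripts. Rpl14-205, from a ribosomal protein gene, was listed at 0 in replicate 1 and 57.8 TPM in replicate 2, at least 86.6-fold higher when 0 is taken as 3 counts in the library. From alignment it was at 29.8 and 31.04 TPM, with the animals close together. Ndufa3-204, from a subunit gene of respiratory complex I, was at 0 and 86.4 TPM against 216 and 198, again with no such gap. Cox8a-202, from a cytochrome oxidase gene, was at 0 and 71.2 TPM from reads and 0.75 and 1.16 from alignment. Ubl5-205, from the gene for a ubiquitin-like protein, was at 0 and 47.0 TPM from reads and at 7.57 and 0 from alignment, so the direction reversed. Tm2d3-210 was at 0 and 14.8 TPM from reads and at 0 in both from alignment. None of these 5 kept a gap of over 2-fold in the same direction.

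The largest differences in the other direction were at lower levels. Fkbp3-205, from a prolyl isomerase gene, was at 19.3 TPM in replicate 1 and 0 in replicate 2, and at 0 in both from alignment. Cpsf7-206, from a gene of the polyadenylation machinery, was at 12.2 and 0 TPM against 4.81 and 1.92, so it was higher in replicate 1 in both. Ddx5-205, from an RNA helicase gene, was at 11.1 and 0 against 3.79 and 4.11. Ercc1-210, from a DNA repair gene, was at 10.8 and 0 against 8.83 and 8.26. Tmem222-205, from a membrane protein gene, was at 9.07 and 0 against 1.30 and 0.56. Of these 5, Cpsf7-206 and Tmem222-205 kept a gap of over 2-fold in the same direction from alignment.

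Gene groups were described by how many of their expressed genes held an abundant NMD transcript. Of 13005 protein-coding genes at a summed level of 2 TPM or more, 1696 (13.0%) held at least 1, and 3684 had an annotated NMD transcript at all. Over those 3684 genes the NMD transcripts held a median of 7.99% of the gene from reads and 4.84% from alignment. The group counts below depend on how many NMD forms the annotation lists for each gene.

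SR proteins bind RNA next to splice sites and promote exon use, and their genes are the classic carriers of poison exons. Of 13 expressed genes of the list, 11 had an annotated NMD transcript and 10 (76.9%) held an abundant one, 11 transcripts in all. Of these, 7 were at 2 TPM or more from alignment and 1 was at 0. Over the 11 annotated genes the median NMD share was 15.9% ± 0.636 from reads and 13.3% ± 1.84 from alignment (SD over the medians of 2 animals, n = 2).

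Srsf9-205 was the highest, at 26.5 and 23.8 TPM from reads and 19.4 and 17.6 from alignment. It held 47.7% and 56.2% of its gene, ahead of the coding Srsf9-201 at 30.03% and 33.3%. Srsf3-201 was at 20.2 and 20.3 TPM against 7.95 and 9.87, with shares of 28.8% and 17.4%, below the coding Srsf3-202 at 32.8% and 46.6%. The Srsf3 forms differ little in length, 2594 and 2618 bases. Srsf6-201 was at 19.1 and 21.3 TPM against 11.3 and 12.6, and it shares its stop with an annotated coding transcript. Tra2a-202 was at 17.3 and 18.1 TPM against 4.30 and 6.17, with shares of 39.3% and 16.9%.

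Srsf1-204 was at 18.1 and 14.4 TPM against 11.98 and 9.59, which from alignment was above Srsf3-201 in the first animal and above Tra2a-202 in both. It had shares of 13.0% and 12.4%, and its stop lay 80 bases before the last junction. The other SR transcripts were lower from reads. Tra2b-206, whose printed end lies wholly outside coding exons, was at 9.89 and 6.86 TPM against 3.55 and 3.02. Srsf11-206 was at 5.73 and 9.71 TPM against 0.69 and 0.85, with shares of 5.38% and 1.02%. Srsf4-204 and Srsf4-203 end in the same stop and were at 3.62 and 5.12 TPM and at 3.37 and 4.37. Srsf7-203, at 2.17 and 2.92 TPM, and Srsf5-208, at 2.61 and 2.73, were near the threshold, and Srsf5-208 was at 0 from alignment. Across the list, then, the levels ran from near the threshold to about 26 TPM, and only Srsf9-205 led its gene in both quantifications.

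Proteins of heterogeneous nuclear ribonucleoproteins (hnRNPs) coat nascent RNA and often repress exons. Of 28 genes, 16 had an annotated NMD transcript and 12 (42.9%) held an abundant one, 17 transcripts, of which 12 were at 2 TPM or more from alignment. Hnrnpu-206 was at 97.3 and 103 TPM against 78.0 and 77.5, with 36.9% and 41.9% of its gene. Hnrnpa1-203 was at 38.4 and 51.8 TPM against 28.4 and 27.9, with shares of 25.8% and 27.1%. Hnrnph3-204 was at 17.8 and 20.4 TPM with a share of 44.1%, which was 11.2% from alignment. Hnrnpll-203, whose end is printed above, was at 11.7 and 10.9 TPM against 4.39 and 4.27. Hnrnpu-206 was the only one of the 17 near 100 TPM. Over the 16 annotated genes the median NMD share was 7.30% from reads and 8.12% from alignment, against 7.99% and 4.84% of all annotated genes.

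Kinases that phosphorylate SR proteins formed a small list. Of 9 genes, 7 had an annotated NMD transcript and 5 (55.6%) held an abundant one, and the median over the 7 was 16.0% ± 1.43 from reads and 18.6% ± 0.683 from alignment. Srpk2-204 was at 71.3 and 66.8 TPM against 41.2 and 36.8, with 33.1% and 44.1% of its gene. Clk1-210 was at 17.0 and 16.3 TPM against 13.4 and 14.95, with 27.1% and 29.3%, and Prpf4b-208 was at 21.6 and 21.01 with 34.5% and 42.7%. Srpk1-201 was at 12.3 and 11.8 TPM with 15.4% and 18.6%. For these 4 transcripts the shares from alignment were larger than those from reads, and for the other 4 of the list, from Clk4 and Prpf4b, they were smaller.

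**Figure D5:**
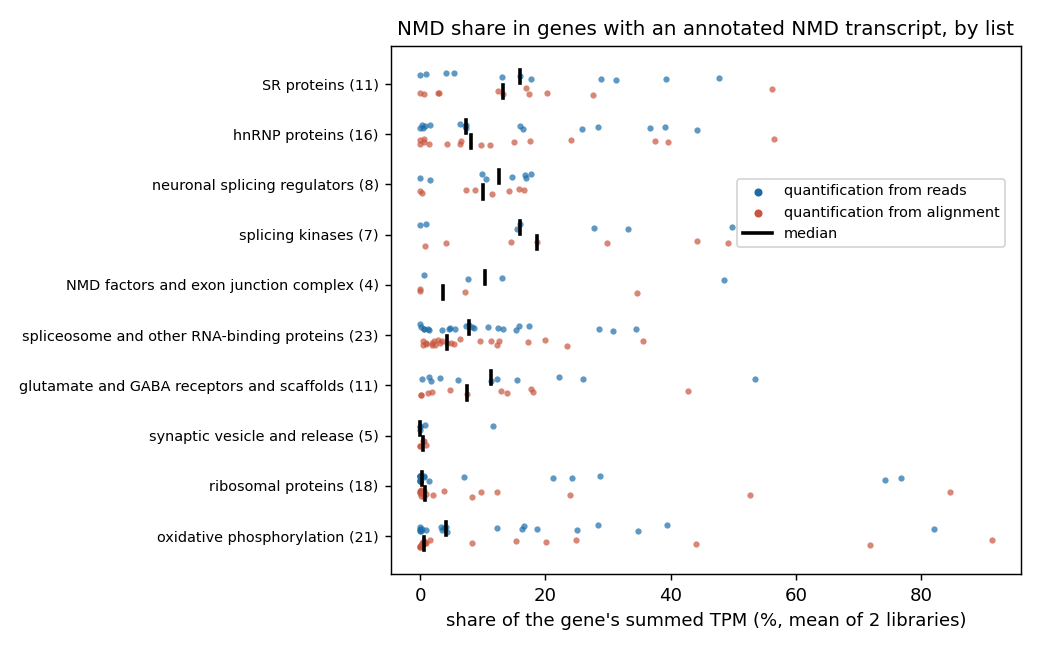
Share of the gene's TPM held by all its NMD transcripts (horizontal axis, %, mean of 2 libraries) for each gene with an annotated NMD transcript, by gene list, from reads (blue) and from alignment (red); black bars are medians and numbers in brackets are genes. SR proteins have medians of 15.9% and 13.3% and ribosomal proteins of 0.388% and 0.787%.

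Spliceosome components and other RNA-binding proteins held 30 abundant NMD transcripts in 17 of 27 genes (63.0%), and 12 of the 30 were at 2 TPM or more from alignment. Rbm39, a coactivator and splicing factor gene, had 6, the largest number of any gene, and its highest, Rbm39-224, was at 26.5 and 30.7 TPM against 6.97 and 6.93. Tardbp, which encodes TDP-43, had 4. Tardbp-228 was at 31.8 and 31.5 TPM against 19.2 and 18.9, with shares of 19.4% and 20.8%. Ddx5-208 was at 88.6 and 103 TPM against 51.8 and 60.8. U2af1-209, from the gene for the small subunit of a splice-site factor, was at 17.1 and 14.8 TPM and at 0 from alignment. The median NMD share over 23 annotated genes was 7.82% and 4.38%.

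Among regulators of neuronal splicing, 5 of 23 genes (21.7%) held 6 abundant transcripts, 5 of them at 2 TPM or more from alignment and none at 0. Celf2-228 was at 41.3 and 46.1 TPM against 29.0 and 27.2, with 14.7% and 14.1% of its gene. Khdrbs3-204 was at 36.3 and 35.3 TPM with 16.1% and 13.8%, and Qk-202 was at 23.1 and 21.8 with 10.6% and 8.77%. Srrm4-205, from a gene that promotes neuronal microexons, was at 2.24 and 4.86 TPM. Its share was 11.9% and 22.0% in the animals from reads, and a mean of 11.4% from alignment. Over the 8 annotated genes the median NMD share was 12.7% from reads and 10.1% from alignment.

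Genes of the NMD machinery and the exon junction complex held 4 transcripts in 3 of 20 genes (15%), near the 13.0% of all genes. Magohb, which encodes an exon junction complex core protein, had Magohb-203 at 2.21 and 4.36 TPM and Magohb-202 at 1.52 and 3.48. Together its NMD forms held 48.4% of the gene from reads and 34.6% from alignment. Smg5-202 was at 6.41 and 2.84 TPM against 3.95 and 1.30, higher in replicate 1 in both. Smg1-204 was at 5.80 and 7.28 TPM and at 0 from alignment. The median NMD share over 4 annotated genes was 10.4% and 3.59%.

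At the synapse, receptor and scaffold genes were counted apart from release genes. Of 40 receptor and scaffold genes, 10 (25%) held 15 abundant NMD transcripts, 10 of which were at 2 TPM or more from alignment and none at 0. Gabra2-204, from a GABA-A receptor subunit gene, was at 30.8 and 24.5 TPM against 17.8 and 13.6, with 42.6% and 38.4% of the gene. Gabra4-202 was at 14.5 and 16.2 TPM with 22.1% and 13.95%, and Dlg1-209, from a scaffold gene, was at 15.3 and 15.2 with 10.5% and 12.2%. Dlg4-205, from the gene for PSD-95, held 0.315% of its gene. The median NMD share over 11 annotated genes was 11.4% and 7.57%.

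Of 22 genes for synaptic vesicles and release, 2 (9.09%) held an abundant NMD transcript. Napa-203 was at 18.9 and 40.1 TPM against 0.97 and 1.48, and Napb-202 at 0.804 and 3.35 against 0 and 1.30. Both genes encode attachment proteins of the fusion machinery. The median NMD share over the 5 annotated genes was 0.0685% from reads and 0.418% from alignment.

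Ribosomal protein genes and respiratory chain genes serve needs of every cell, and their counts lay near that of all genes. Of 80 ribosomal protein genes, 18 had an annotated NMD transcript and 7 (8.75%) held an abundant one. Of these 7 transcripts, 5 were at 2 TPM or more from alignment, 4 were at least 2-fold lower there and 1 was at 0. For all NMD transcripts chosen these shares were 45.4%, 43.5% and 11.5%. Rpl37a-203 was at 160 and 98.3 TPM against 0.22 and 0.23, and Rps18-211 at 59.1 and 59.1 against 0 and 0. Over the 18 annotated genes the median share was 0.388% and 0.787%, so the few high transcripts were exceptions within the list. Ribosomal protein genes have many near-identical processed copies, and how reads were split among them is uncertain.

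Of 87 genes of oxidative phosphorylation, complex I assembly factors included, 14 (16.1%) held 16 abundant NMD transcripts. Ndufs4, a complex I subunit gene, had both printed forms: Ndufs4-204 at 58.0 and 61.8 TPM against 29.0 and 19.7, and Ndufs4-202 at 38.7 and 37.7 against 21.7 and 29.1. They held 50.1% and 31.96% of the gene from reads and 35.1% and 36.7% from alignment, above the coding Ndufs4-201 at 17.2% and 9.22%. Together the NMD forms of Ndufs4 held 82.0% and 71.8%. Atp5f1-203, from an ATP synthase gene, was at 70.8 and 77.7 TPM against 49.2 and 52.5, with 39.4% and 44.0%. Cox4i1-207 was at 102.5 and 173 TPM against 0.68 and 0.36. Of the 16, 10 were at least 2-fold lower from alignment, against 43.5% of all NMD transcripts chosen. Over the 21 annotated genes the median NMD share was 4.11% from reads and 0.652% from alignment, below the 7.99% and 4.84% of all annotated genes, so these named shares were among the high ones of the list.

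Most genes held 1 abundant NMD transcript (1399), 239 held 2, 46 held 3 and 13 held at least 4. Besides Rbm39, Tmem234 and Crebzf held 5 each, and Ttc3, Senp2 and Ptpn4 held 4 each. Of all chosen transcripts, 1684 were at 2 TPM or more in each library from reads, and 756 were so in each library of both quantifications. At the threshold, Nin-209, Aup1-206 and Ppfia1-204 were just inside, with Nin-209 at 3.02 and 0.986 TPM and Ppfia1-204 at 1.63 and 2.37. Map4k2-222 at 2.68 and 1.31, Slc18b1-204 at 1.10 and 2.89 and Phf14-206 at 0.836 and 3.15 were just outside. On both sides of the threshold the animals lay further apart than the distance to it.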

How the data were processed

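Ribosomal RNA-reduced total RNA of 2 cortices was quantified per transcript, 1 library each, on build mm10 with GENCODE M21, per the file headers and the notes beside them. The authors deposited estimated counts and TPM made directly from 1 sequence file per library, and expected counts, TPM and a posterior SD of the count (another unit, in counts) made from a transcriptome alignment. The sources used here do not give the programs (aligner and quantifier: not given), nor whether the sequence file held all reads. The quantifications share their libraries and are not independent.

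Shares, fold calls, junction distances and 31-base word uniqueness (either strand) were computed with Python 3.11.15, pandas 2.3.3 and numpy 2.4.6, leaving out 97 rows without a gene. Fold calls were tried on simulated counts with counting error alone. The planted changes were larger than 2-fold and lay in transcripts of at least 50 counts. Lower counts and the splitting of reads among transcripts were therefore not covered. A 0 count allows 3 counts, or 0.0898 and 0.0896 CPM; such floors cover counting error only. Named transcripts were the 20 highest, the 10 highest shares in genes of at least 10 TPM, members of lists of at most 12 members, the 5 most different between animals in each direction, the 5 highest at 0 from alignment and 3 on each side of the threshold. Others named, from longer lists or holding at least 50% of the gene, were chosen after their values were seen. Some items that the rule takes are left out of the text. The members and lists were chosen with earlier results of these data known. Hybrid animals carry a CAST/EiJ genome copy, whose effect on counts was not tested.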

Additional observations from a re-analysis of the deposited data

How the results depend on the processing

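The number of abundant NMD transcripts was 1058 at a mean of at least 5 TPM and 1127 when chosen from the alignment tables, against 2071, and ran from 1978 to 2171 with either animal left out. The median share was 10.6% at a minimum of 1 TPM, 19.2% at 5 TPM, 6.98% from alignment and 17.3% with only coding and NMD transcripts in the gene's sum, and ran from 13.5% to 13.6% with either animal left out. With that sum, 212 transcripts held at least 50% of the gene, against 123 with all transcripts in the sum. With all transcripts in the sum, 128 to 135 did so with either animal left out. Transcripts that led their gene ran from 313 to 319 with either animal left out, and were 275 without readthrough transcripts, an alternative added after seeing the data, which also left 89 at 50% or more. At a minimum of 1 TPM in both quantifications, 1578 transcripts were measured in both, against 940 at 2 TPM, and 922 to 970 with either animal left out. Those at least 2-fold lower from alignment ran from 872 to 895, and were 1310 without the shift of scale. With at least 50 counts, 149 (10.7%) differed 2-fold between the animals, against 404 (19.5%). The median NMD share over all expressed genes of a list was 15.4% for splicing kinases (14.6% from alignment, 13.3% to 14.1% with either animal left out) and 5.55% for spliceosome proteins (3.11% from alignment, 5.22% to 5.87%). It was 13.0% for SR proteins, with 11.8% to 13.6% when either animal was left out, and 0 for 6 lists. For hnRNP proteins it was 0.388%, with 3.8e-06% to 0.653%. Of 189 named shares, 96 were lower and 40 higher from alignment by more than the SD over the animals. Why the quantifications differ was not tested.

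No paired analysis was possible because the samples form 1 group. Depth limits the low end: the least covered transcript had 3.41 estimated counts, and 1394 of 2071 rested on at least 50.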
